A study of Rattus norvegicus with 8 samples.

Results

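Tubulin modifying enzymes add chemical groups to tubulin, the protein of microtubules, or take them off again. The genes described were 6 listed by symbol: Agtpbp1, Ttl, Ttll1, Atat1, Hdac6 and Vash1. Through RefSeq transcripts 4 of the 6 were found among the 17379 genes of the library files, and the results below are about these 4. Hdac6, which removes the acetyl group, and Vash1, which removes the terminal tyrosine, are not analysed here. The list was drawn up with Agtpbp1 already known to separate the axonal hairpin groups, so the axonal hairpin comparison is given as a description, with no test.

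Rat dorsal root ganglion neurons of embryonic day 15 were cultured for 7 days in microfluidic chambers, in which axons grow into a compartment separate from the cell bodies. All cultures received a lentivirus on the day of plating, carrying either a control hairpin (shControl) or a hairpin against Pum2 (shPum2), a Pumilio RNA-binding protein. This gave 4 groups of 2 libraries: somatic shControl, somatic shPum2, axonal shControl and axonal shPum2. Material labelled as holding both cell bodies and axons gave the somatic libraries. Their kit was a standard one, whereas axonal RNA went through a kit for ultra-low input, and so effects of kit and compartment cannot be told apart. The labels do not say whether the 2 libraries of a group came from separate cultures, so p-values measure only the spread between these libraries.

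Microtubules carry a code of modifications, most of them on the tails of tubulin that face outward. Ligases of the Ttll family attach side chains of glutamate, and carboxypeptidases, of which Agtpbp1 (CCP1) is a major one in the brain of mice, shorten them. The last tyrosine of alpha-tubulin is cut off by vasohibins with their partner Svbp and is put back by Ttl, while Atat1 acetylates a lysine inside the microtubule and Hdac6 removes that mark. In neurons these marks affect which motors and severing enzymes act on axonal microtubules, and mice without Agtpbp1 lose Purkinje cells.

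Somatic libraries held 16725902 to 25821800 estimated counts and axonal libraries 11641980 to 16131627. The number of genes with a count was 14042 to 14271 in somatic and 9544 to 10730 in axonal libraries. Levels are given as counts scaled to the library total (CPM) for a gene compared between libraries, and as TPM, which also corrects for transcript length, for comparisons between genes. Somatic Pum2 levels were 164 and 160 CPM under shControl, and 38.2 and 36.5 CPM under shPum2. Axonal Pum2 levels were 3.25 and 0.443 CPM under shControl, and 1.46 and 7.07 CPM under shPum2, so the hairpin groups overlapped in axons. Because these are bulk libraries, fewer cells of a type and less RNA per cell cannot be told apart. Axonal libraries varied far more between replicates. Among 6409 genes with a mean of at least 5 CPM the median difference between the 2 axonal shControl libraries was 1.62 on the log2 scale, and among 7104 such genes it was 1.49 between the 2 axonal shPum2 libraries. In the somatic groups this median was 0.11 and 0.16.

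All 9 sensory neuron markers found had a mean of at least 1 CPM in every group, and they summed to 26448 to 31049 CPM in somatic and 14202 to 29375 CPM in axonal libraries. Fibroblast markers (8 of 8 found) were highest in replicate 1 of somatic shPum2, at 8515 CPM summed, against 1625 to 3270 CPM in the other 3 somatic libraries and 69.0 to 724 CPM in axonal libraries. Markers of macrophages and blood (8 of 8 found) summed to 37.5 to 162 CPM in somatic and 237 to 3414 CPM in axonal libraries. Schwann and satellite cell markers (8 of 8 found) stayed between 38.7 and 193 CPM in all libraries. Endothelial markers (4 of 4 found) summed to 8.97 to 14.5 CPM in somatic and 0.171 to 14.4 CPM in axonal libraries. Of these, Cdh5 and Kdr were at 0 counts in axonal libraries. The summed levels of the 6 marker lists, dividing cells included, overlapped between the axonal hairpin groups. The part of other cells in the results below was not tested.

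The promoters of Agtpbp1 and Ttl are shown because these 2 genes had the largest hairpin differences of the 4 in axons, and that of Atat1 because its axonal groups overlapped. They run from 250 bases before to 50 bases after an annotated start and come from RefSeq on build GRCr8, matched by symbol. The table had no entry for Ttll1. Agtpbp1 is at chr17:5139003-5139302, Ttl at chr3:136751825-136752124 and Atat1 at chr20:2849189-2849488, all on the plus strand, and the Agtpbp1 window lies inside the annotated gene. Capitals mark matches, on either strand, to the GC box (GGGCGG), the CCAAT box (CCAAT), the TATA box (TATAAA) or the short core of a cAMP response element (TGACG).
Agtpbp1: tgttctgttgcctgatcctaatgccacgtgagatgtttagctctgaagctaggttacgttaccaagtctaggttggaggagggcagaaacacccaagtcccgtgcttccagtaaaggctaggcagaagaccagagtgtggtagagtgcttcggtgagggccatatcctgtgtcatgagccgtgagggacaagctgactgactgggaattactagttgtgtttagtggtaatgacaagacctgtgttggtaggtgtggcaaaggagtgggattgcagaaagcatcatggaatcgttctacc
Ttl: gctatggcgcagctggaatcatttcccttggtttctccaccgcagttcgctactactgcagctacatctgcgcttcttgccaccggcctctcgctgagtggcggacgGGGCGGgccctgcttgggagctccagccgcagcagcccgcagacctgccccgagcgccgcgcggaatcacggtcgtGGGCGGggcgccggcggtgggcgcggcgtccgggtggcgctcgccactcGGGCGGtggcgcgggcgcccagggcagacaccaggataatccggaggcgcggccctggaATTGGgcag
Atat1: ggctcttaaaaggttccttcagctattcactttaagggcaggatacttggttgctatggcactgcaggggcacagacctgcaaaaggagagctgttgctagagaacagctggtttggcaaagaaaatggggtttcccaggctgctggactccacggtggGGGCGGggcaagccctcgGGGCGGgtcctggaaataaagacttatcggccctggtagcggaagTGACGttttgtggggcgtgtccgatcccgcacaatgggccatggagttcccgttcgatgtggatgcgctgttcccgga
The Ttl window held 3 GC boxes and 1 CCAAT box, the Atat1 window 2 GC boxes and 1 cAMP element core, and the Agtpbp1 window none of the 4 motifs. Of 33469 rat promoters of the same length, 33.1% held a GC box, 37.5% a CCAAT box, 14.2% a TATA box and 21.2% the cAMP element core. G and C made up 71.3% of the Ttl, 56.7% of the Atat1 and 49.7% of the Agtpbp1 window, against a median of 51.7%. CpG pairs numbered 36, 14 and 6, against a median of 7. A match is a string of letters and says nothing of whether a factor binds.

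Ttl and Agtpbp1 stood above Atat1 and Ttll1 in every somatic library, and Ttll1 stood highest in every axonal library. In somatic shControl libraries Ttl stood highest at 248 ± 15.8 TPM, followed by Agtpbp1 at 162 ± 1.38, Atat1 at 65.6 ± 0.794 and Ttll1 at 54.8 ± 3.23 TPM (SD, n = 2). Each gene lay above the next in both libraries. Somatic shPum2 libraries had the same order, at 240 ± 15.3, 158 ± 13.8, 57.6 ± 4.77 and 51.8 ± 4.94 TPM (SD, n = 2), though Atat1 and Ttll1 overlapped. In axonal shControl libraries the order was Ttll1 at 23.7 ± 19.3, Atat1 at 8.12 ± 1.93, Ttl at 0.355 ± 0.0847 and Agtpbp1 at 0.271 ± 0.0840 TPM (SD, n = 2). Ttl and Agtpbp1 overlapped there, and both lay below Atat1 and Ttll1 in both libraries. Axonal shPum2 libraries had Ttll1 at 20.5 ± 0.505, Atat1 at 10.9 ± 7.65, Agtpbp1 at 7.88 ± 2.26 and Ttl at 7.14 ± 2.73 TPM (SD, n = 2), of which only Ttll1 was apart from its neighbour. Among genes with any TPM in a library, Agtpbp1 ranked above 90.8% to 91.7% in somatic libraries, above 20.7% and 36.1% in axonal shControl and above 61.9% and 65.5% in axonal shPum2.

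**Figure D1:**
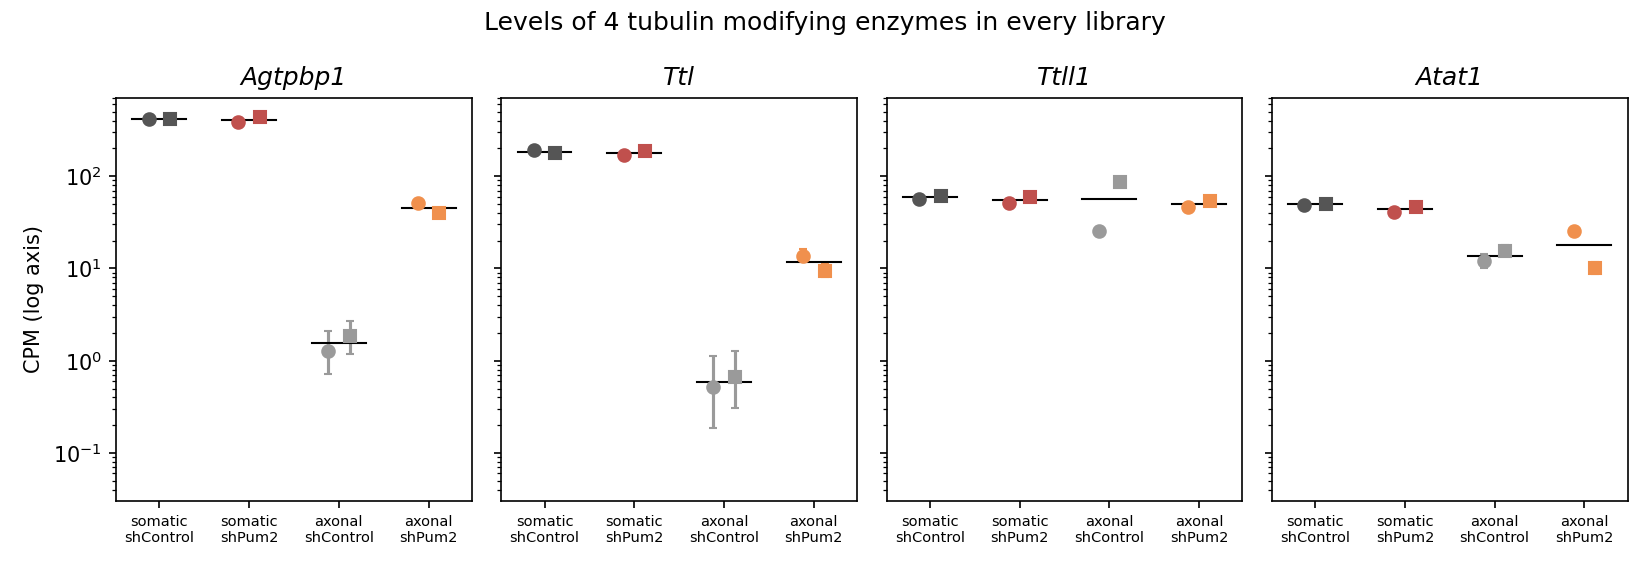
CPM on a log axis in the 8 libraries, a panel per gene. Circles are replicate 1, squares replicate 2, horizontal lines group means and vertical bars the 95% Clopper-Pearson interval of each library, which covers counting error only; Agtpbp1 and Ttl lie below 2 CPM in axonal shControl and above 9 CPM in axonal shPum2 libraries.

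Agtpbp1, the glutamate chain shortener, had axonal levels of 1.28 and 1.85 CPM under shControl, and of 51.1 and 40.0 CPM under shPum2. These came from 15 and 25 estimated counts and then from 595 and 646. The 95% Clopper-Pearson intervals of the shControl libraries reached from 0.718 to 2.12 and from 1.20 to 2.73 CPM, counting error alone. Both shPum2 libraries were above both shControl libraries, and the means differed 29.1-fold. The replicates of each group lay close together, 0.40 and 0.35 apart on the log2 scale. The fitted log2 difference was 4.74 with an SE of 1.80, and the authors' deposited table has 4.32 with an SE of 1.31. Deposited values were smaller in size than the fitted ones for all 4 enzymes in axonal and somatic libraries. For somatic Pum2 they were -1.71 and -2.13. The 2 sources and their SEs are therefore not directly comparable, and the reason was not tested.

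Ttl, the ligase that restores the terminal tyrosine, had the same arrangement at a lower level. Axonal levels were 0.513 and 0.665 CPM under shControl, from 6 and 9 counts, and 13.8 and 9.48 CPM under shPum2, from 161 and 153 counts. Both shPum2 libraries were again the higher ones, with means 19.8-fold apart. At 6 and 9 counts under shControl, Ttl could pass the axonal expression filter only through shPum2, where it was high. Nothing is therefore read from its separation. The fitted log2 difference was 4.15 with an SE of 2.52, and the authors' deposited table has 3.62 with an SE of 1.56.

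Ttll1, the catalytic subunit of a polyglutamylase complex in mice, had axonal levels of 25.4 and 87.0 CPM under shControl, and of 46.4 and 53.3 CPM under shPum2. The shPum2 pair lay between the 2 shControl libraries. Its fitted log2 difference was -0.23 with an SE of 1.12. Atat1, the acetyltransferase, had 12.1 and 15.6 CPM under shControl, and 25.4 and 10.2 CPM under shPum2, the shControl pair lying between the other 2. Its fitted log2 difference was 0.16 with an SE of 1.79. The authors' deposited table has -0.19 for Ttll1 and 0.10 for Atat1, with SEs of 1.29 and 1.35.

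Whether groups overlap was judged on TMM-scaled CPM, that is, after edgeR had corrected each library for its composition. Hairpin groups that do not overlap were frequent among all 8517 genes past the axonal expression filter: 27.1% had them, 13.4% with shPum2 higher and 13.7% with shPum2 lower. Of the 4 enzymes 2 had them, both with shPum2 higher. The list was chosen on this comparison and nothing is read from that count. By adjusted p (edgeR) 0% of all genes passed, with 257 at an unadjusted p below 0.05. DESeq2 called 159 of all genes and limma voom 0. Of the genes with separate groups and shPum2 higher, 231 had a log2 difference at least as large as that of Agtpbp1, itself included. The median log2 difference of all genes was -0.05, and the median size regardless of sign was 0.91. The coefficient of variation that edgeR fitted between replicates was 125% for axonal libraries and 23.5% for somatic ones.

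**Figure D2:**
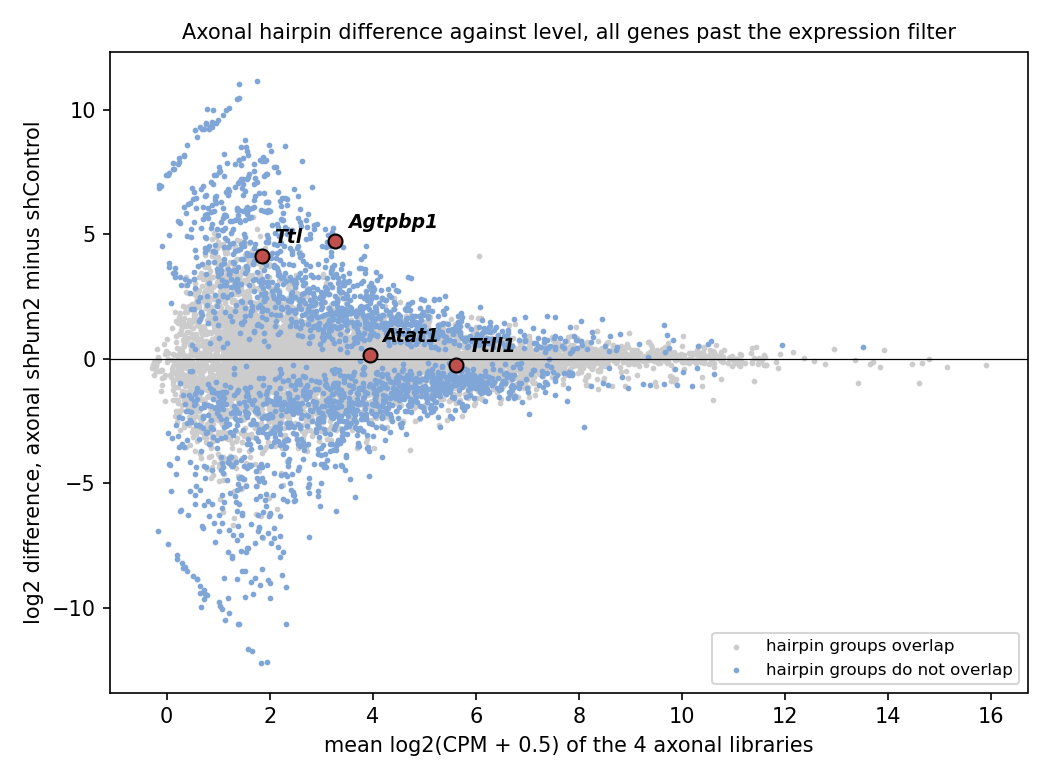
Log2 difference of axonal shPum2 minus shControl libraries against the mean log2(CPM + 0.5) of the 4 axonal libraries, for the 8517 genes past the expression filter. Blue points are genes whose hairpin groups do not overlap, and red points are the 4 enzymes; Agtpbp1 (4.74) and Ttl (4.15) lie among the blue points above the axis, and Ttll1 (-0.23) and Atat1 (0.16) lie near it.

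Within a library the ratio between 2 enzymes does not depend on depth. Ttl stood at 1.47 to 1.59 times the TPM of Agtpbp1 in the 4 somatic libraries, at 1.40 and 1.26 times in axonal shControl, and at 0.958 and 0.830 times in axonal shPum2. So this ratio ran from 0.830 to 1.59 over the 8 libraries while the levels differed by orders of magnitude. In axonal shControl it is imprecise, as it rests on 6 and 9 counts of Ttl. The 95% counting intervals of Ttl there were 0.188 to 1.12 and 0.304 to 1.26 CPM. Agtpbp1 over Ttll1 was 2.81 to 3.10 in somatic libraries, 0.0210 and 0.00883 in axonal shControl and 0.454 and 0.312 in axonal shPum2. The deglutamylase was thus above the glutamate ligase in every somatic library and below it in every axonal library.

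The profile of each enzyme was compared with 8991 other genes over the 8 libraries, by the root mean square difference of centred log2(CPM + 0.5) values. The nearest to Agtpbp1 were Lrp11 (0.21), Vps26b (0.26) and Chmp7 (0.33), and Ttl was 7th at 0.39. Vps26b, a subunit of the retromer that recycles membrane proteins, had axonal levels of 0.342 and 1.11 CPM under shControl, and of 42.9 and 23.4 CPM under shPum2. Nearest to Ttl were the adhesion molecule L1cam (0.10), Chmp7 (0.18) and Brinp1 (0.26), with Agtpbp1 8th. Nearest to Ttll1 were Gyg1 (0.09), Gstm7 (0.13) and Bpgm (0.13), all 3 highest among axonal libraries in replicate 2 of shControl, as Ttll1 was. Nearest to Atat1 were the mitochondrial phosphate carrier Slc25a3 (0.10), Raly (0.11) and Fkbp4 (0.12), all 3 highest among axonal libraries in replicate 1 of shPum2, as Atat1 was. Ttll1 was 6524th and Atat1 4326th in the order of likeness to Agtpbp1. These ranks share libraries with the choice of the genes and are a description.

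The somatic comparison used libraries other than the axonal ones in which Agtpbp1 was known to separate the groups. It asked whether RNA of the 4 enzymes differs after Pum2 knockdown in somatic material, which holds cell bodies and axons. By edgeR 0 of the 4 passed, and 0 had an unadjusted p below 0.05. Agtpbp1 levels were 418 and 419 CPM under shControl, and 383 and 438 CPM under shPum2, a log2 difference of -0.04 with a 95% interval from -0.36 to 0.29. The shControl pair lay between the shPum2 libraries. Ttl levels were 190 and 177 CPM, then 168 and 187 CPM, a log2 difference of -0.05 (interval from -0.33 to 0.22), and the groups overlapped. Ttll1 levels were 56.1 and 61.8 CPM, then 51.7 and 59.8 CPM, a log2 difference of -0.09 (interval from -0.45 to 0.27), also with overlap.

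Atat1 was the enzyme whose somatic groups did not overlap: 49.0 and 50.5 CPM under shControl, against 40.9 and 46.6 CPM under shPum2. The log2 difference was -0.19 with an SE of 0.12 and a 95% interval from -0.52 to 0.13. Groups that do not overlap were found for 23.7% of the 12346 genes tested, 12.6% with shPum2 lower and 11.1% with shPum2 higher. The adjusted p of all 4 enzymes was 0.9997 (edgeR quasi-likelihood test, with adjustment by Benjamini and Hochberg, as for every p below). Of all genes 0.0081% passed, which is Pum2 alone, whose log2 difference was -2.13 (SE 0.07, edgeR adjusted p = 0.0247). That call did not hold without replicate 1 or 2 of somatic shControl (edgeR adjusted p = 0.9998 and 0.99998). DESeq2 and limma voom also called 0 of the 4 enzymes. Without replicate 1 of somatic shPum2, the library with the most fibroblast RNA, the log2 differences were 0.09 for Agtpbp1, 0.05 for Ttl, 0.04 for Ttll1 and -0.07 for Atat1. Without replicate 2 of somatic shPum2 Atat1 was at -0.33 (edgeR adjusted p = 0.342), and 1 of the 4 enzymes had an unadjusted p below 0.05. The authors' deposited somatic table has log2 fold changes of -0.03 for Agtpbp1, -0.04 for Ttl, -0.05 for Ttll1 and -0.12 for Atat1, with SEs from 0.0987 to 0.114.

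**Figure D3:**
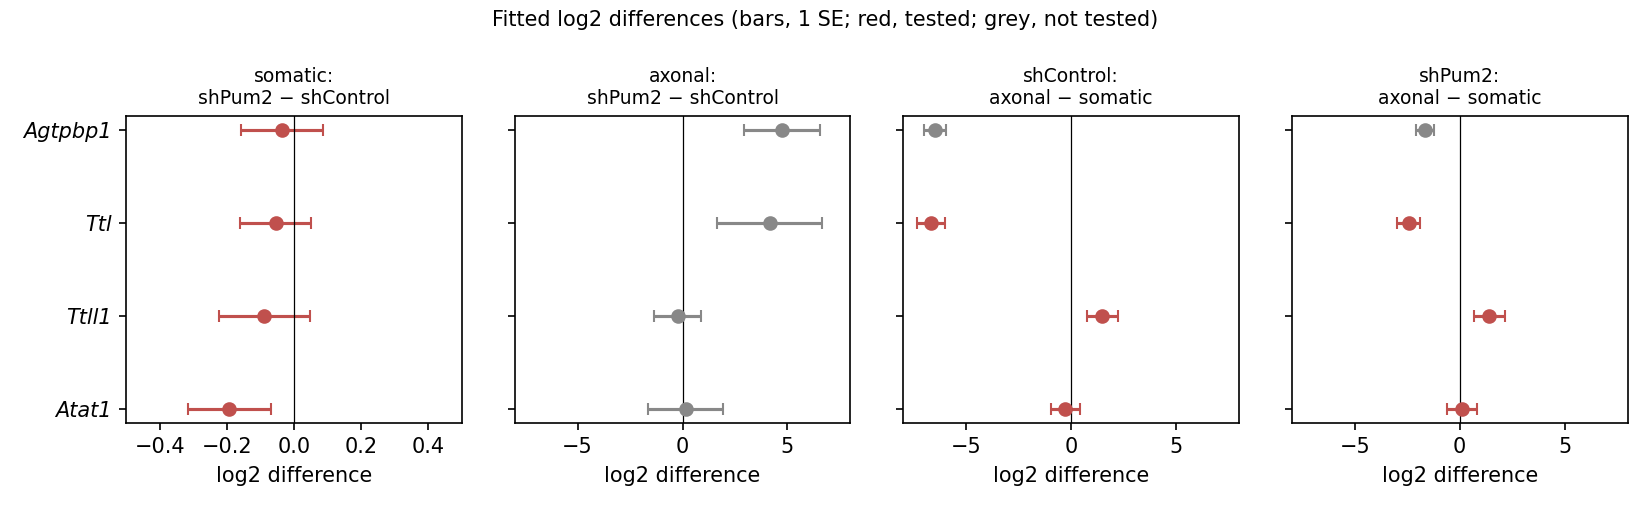
Fitted log2 differences of the 4 enzymes in the 4 comparisons, with bars of 1 SE. Red points were tested and grey points were not; the axis of the somatic panel is narrower than the others, and its 4 differences lie between -0.19 and -0.04.

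The compartments were compared within each hairpin after TMM scaling, which asked whether each enzyme's RNA was a larger or smaller share of axonal than of somatic libraries. In shControl cultures Ttl fell by 6.69 on the log2 scale (SE 0.67, 95% interval from -8.30 to -5.09), at an edgeR adjusted p of 0.00473, and it was lower in both axonal than in both somatic libraries. In shPum2 cultures it fell by 2.43 (SE 0.54, interval from -3.73 to -1.13), at an edgeR adjusted p of 0.0228, and again both axonal libraries were the lower ones. Its axonal mean in CPM was 0.321% of the somatic mean with shControl and 6.56% with shPum2. The difference between these 2 falls holds the axonal hairpin difference and was not tested.

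Ttll1 had means of 56.2 ± 43.5 CPM in axonal and 58.9 ± 4.08 CPM in somatic shControl libraries, and of 49.9 ± 4.86 and 55.8 ± 5.79 CPM in shPum2 (SD, n = 2). After TMM scaling the log2 differences were 1.49 (interval from -0.26 to 3.24) and 1.42 (interval from -0.33 to 3.16), with adjusted p of 0.172 and 0.217 (edgeR). With scaling by the total count alone they were -0.07 and -0.16. Atat1 had means of 13.8 ± 2.49 and 49.7 ± 1.10 CPM with shControl and of 17.8 ± 10.8 and 43.8 ± 4.0 CPM with shPum2 (SD, n = 2). Its log2 differences after TMM scaling were -0.27 (interval from -1.97 to 1.43) and 0.11 (interval from -1.58 to 1.81), with adjusted p of 0.807 and 0.936 (edgeR). Agtpbp1, described without a test because its axonal levels entered the choice, was 267-fold lower in axons by mean CPM with shControl and 9.01-fold lower with shPum2. After TMM scaling these folds were 89.4 and 3.15.

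So 1 of 3 tested enzymes passed in each hairpin. Of the 12337 genes tested 27.9% passed with shControl, 18.5% as lower and 9.41% as higher in axons, and 24.7% with shPum2, 16.2% and 8.45%. Groups that did not overlap were the rule, at 71.4% of genes with shControl (49.6% lower, 21.7% higher) and 69.4% with shPum2 (47.1% and 22.3%). The values depended on the scaling. With total counts alone the log2 values of all genes moved by a median of -1.57 with shControl and -1.37 with shPum2, and 14.4% and 15.1% of the genes called were higher in axons, against 33.7% and 34.2% with TMM. The call of Ttl did not hold without replicate 1 or 2 of somatic shControl (adjusted p = 0.106 and 0.103) or of somatic shPum2 (0.131 and 0.154; edgeR), and in each of these fits 0 genes passed in all. With any library of the hairpin compared left out, the log2 difference of Ttl stayed between -6.87 and -6.48 with shControl. With shPum2 it stayed between -2.58 and -2.20.

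A further 52 genes of the tubulin code were listed by role: other enzymes, their partners, severing enzymes, readers of the modified tails, and the tubulins themselves. Of these 38 were found in the library files through RefSeq transcripts. A gene not found may still be among the 954 transcripts that were left without a gene name. In the somatic hairpin comparison 0 of the 35 tested passed with edgeR, DESeq2 or limma voom, 0 had an unadjusted p below 0.05 (edgeR), and 6 had groups that did not overlap, against 23.7% of all genes. Their median log2 difference was -0.04, against 0.01 over all genes tested. In the axonal hairpin comparison 27 passed the expression filter, and 8 of them had groups that did not overlap, 7 with shPum2 higher and 1 lower, where 27.1% of all genes had such groups. Their median log2 difference was 0.51, against -0.05 over all genes. Genes at low counts could pass that filter only through the group in which they were high, so these counts support nothing.

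Of the other listed deglutamylases 2 were found in the files. Agbl5, which removes branching glutamates, was at 20.3 to 24.3 CPM in somatic libraries and at 0.0856, 1.63, 0.687 and 8.74 CPM in the axonal ones, so the axonal groups overlapped. Agbl4 was at 2.15 to 4.07 CPM in somatic libraries and at 0 counts in all 4 axonal libraries, at least 20.6-fold lower with shControl and 32.4-fold lower with shPum2 against a floor of 3 counts over the group. Per length, Agtpbp1 was the most abundant of the 3 in every somatic library, at 148 to 168 TPM against 10.8 to 12.8 TPM for Agbl5 and 1.34 to 2.48 TPM for Agbl4.

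Among the 7 of 13 listed ligases found in the files, Ttll1 led in somatic TPM, followed by Ttll12 and Ttll3. Ttll12, a family member without a known ligase activity, was at 46.3 to 54.7 CPM in somatic libraries and at 0.0856, 0.148, 7.64 and 0.124 CPM in axonal ones. It passed as lower in axons with shControl (log2 difference -7.14, SE 1.91, adjusted p = 0.0352, edgeR) but not with shPum2 (-2.48, adjusted p = 0.290). The shControl call did not hold without replicate 1 or 2 of axonal shControl (edgeR adjusted p = 0.0949 and 0.107) or with the replicate number as a block (0.0600). Ttll3, a glycine ligase, was at 4.80 to 6.45 CPM in somatic libraries and had counts in 1 axonal library, at 1.92 CPM.

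The partners that form the polyglutamylase complex with Ttll1 were all 5 found in the files, and 3 of them had axonal hairpin groups that did not overlap. Such groups were found for 27.1% of all genes past the filter, and nothing is read from a count among 5. Lrrc49 had axonal levels of 0.685 and 0.296 CPM under shControl, and of 16.7 and 32.2 CPM under shPum2, against 62.1 to 73.3 CPM in somatic libraries. It thus stood in the same order over the axonal groups as Agtpbp1 and Ttl. Its axonal shControl levels rest on 8 and 4 counts, so it could pass the expression filter only through shPum2, where it was high. Tpgs2 stood at 153 and 143 CPM, then at 267 and 456 CPM, in axons, against 126 to 144 CPM in somatic libraries. Cstpp1 went the other way, with 51.3 and 72.6 CPM under shControl, and 42.2 and 37.8 CPM under shPum2. Tpgs1 and Nicn1 overlapped between the axonal hairpin groups, at 20.3 to 36.7 and 31.7 to 80.3 CPM.

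On the detyrosination side, Svbp, the partner of the vasohibins, had axonal levels of 130 and 65.7 CPM under shControl, and of 87.5 and 123 CPM under shPum2, against 16.5 to 22.3 CPM in somatic libraries. It was higher in axons with either hairpin, with log2 differences of 3.99 (SE 0.68, adjusted p = 0.0142) and 4.03 (SE 0.68, adjusted p = 0.0153, edgeR). Matcap1, a detyrosinating protease described in human cells, had 49.4 and 96.6 CPM, then 192 and 100 CPM, in axons, against 342 to 412 CPM in somatic libraries. The library files matched no transcript of Vash2 or of the deacetylase Sirt2. The authors' deposited tables list Vash2 with a log2 fold change of 0.02 in the somatic and -1.93 (SE 1.59) in the axonal comparison, and Sirt2 with 0.00 and -0.60 (SE 1.33).

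**Figure D4:**
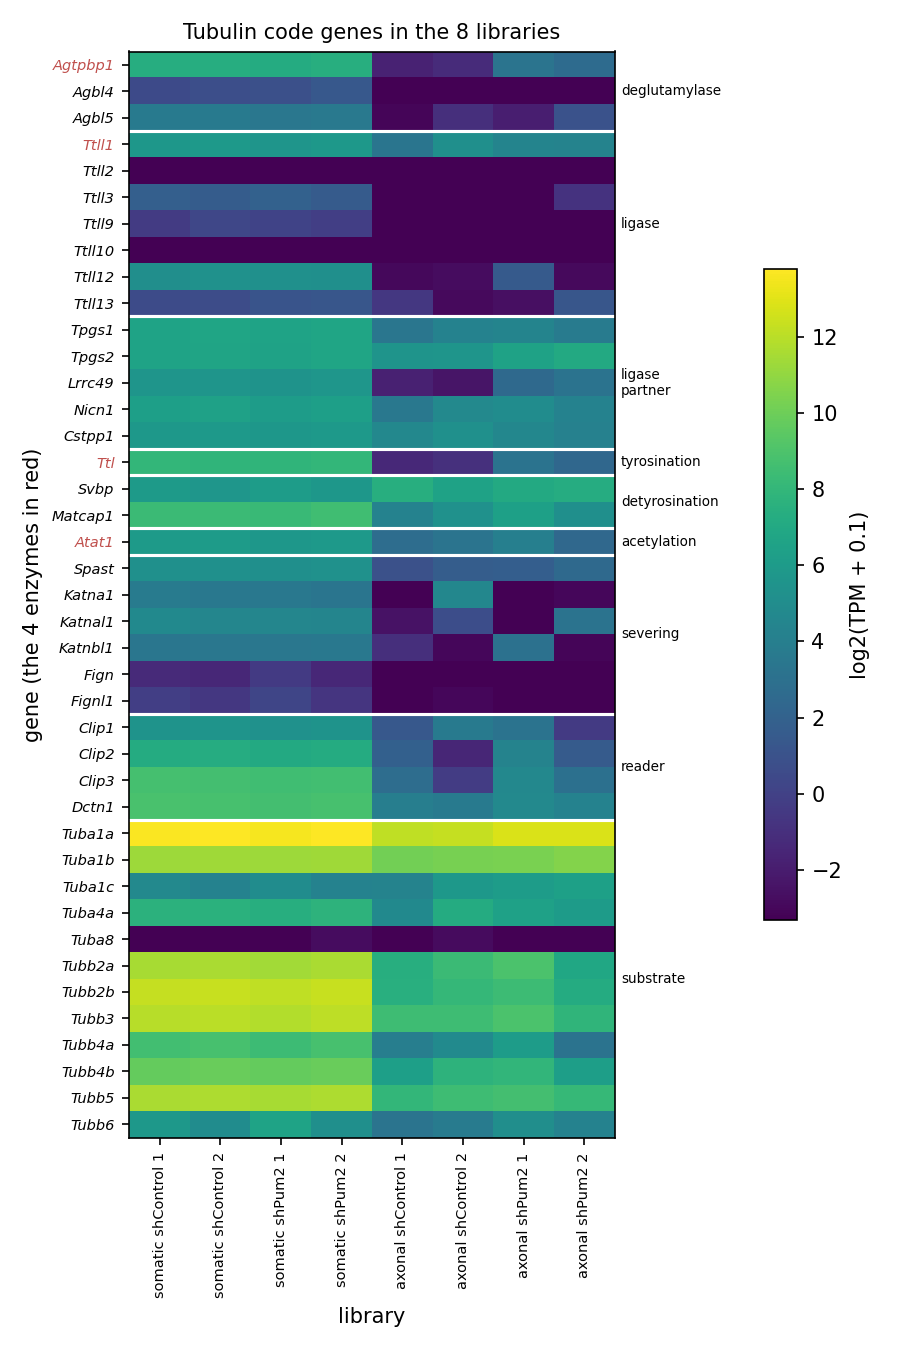
Levels of the reported tubulin code genes found in the files, as log2(TPM + 0.1) in the 8 libraries, ordered by role, with the 4 enzymes in red; yellow is high and dark blue low. Agtpbp1, Ttl and Lrrc49 have darker cells in the 2 axonal shControl than in the 2 axonal shPum2 libraries, while Tuba1a is among the brightest in all 8.

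Of 4 readers of the tyrosinated tail, 2 passed as lower in axons with shControl and 1 with shPum2, where 18.5% and 16.2% of all genes did. Dctn1, the dynactin subunit that holds on to microtubules, had axonal levels of 96.4 and 70.0 CPM under shControl, and of 141 and 119 CPM under shPum2, against 1059 to 1178 CPM in somatic libraries. Its log2 difference between compartments was -2.23 with shControl and -1.55 with shPum2 (adjusted p = 0.0119 and 0.0233, edgeR). The shPum2 call did not hold with RLE size factors (edgeR adjusted p = 0.0970), with DESeq2 (0.0574) or with the 4 libraries of that hairpin alone (edgeR, 0.0587). Clip3 had 18.7 and 1.85 CPM, then 61.0 and 22.7 CPM, in axons, also with both shPum2 libraries higher. Between compartments its log2 difference was -3.96 with shControl and -2.02 with shPum2 (edgeR adjusted p = 0.0353 and 0.190). With the 4 shControl libraries alone the shControl call of Clip3 was lost (edgeR adjusted p = 0.109). Its shControl difference ran from -6.42 to -3.10 with a library left out. Clip2 overlapped, with 23.9 and 1.55 CPM, then 117 and 20.5 CPM, and passed between compartments with neither hairpin (edgeR adjusted p = 0.0858 and 0.529). Clip1 did not pass either, with log2 differences of 0.10 and -0.75 (edgeR adjusted p = 0.952 and 0.679).

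The tubulins themselves ranged widely in level, with Tuba1a, Tubb2b and Tubb3 the highest in somatic TPM. Tuba1a, an alpha-tubulin, had axonal levels of 9484 and 9630 CPM under shControl, and of 13131 and 15174 CPM under shPum2, the 2 pairs being apart, against 10599 to 12404 CPM in somatic libraries. It passed as higher in axons with TMM scaling (log2 differences 1.27 and 1.88, adjusted p = 0.0353 and 0.0185, edgeR), but with total-count scaling the values were -0.31 and 0.30 and neither passed (edgeR adjusted p = 0.0961 and 0.120). With RLE size factors the shControl call was lost (edgeR adjusted p = 0.0691), as it was without replicate 1 or 2 of axonal shControl (0.116 and 0.0933), and the shPum2 call was lost with the libraries of that hairpin alone (0.105). Reads of Tuba1a, Tuba1b and Tuba1c, which are nearly identical, were divided between them by estimate, so their single values are uncertain. Tubb2b, a beta-tubulin, had 391 and 529 CPM, then 653 and 329 CPM, in axons, against 4135 to 4827 CPM in somatic libraries. It passed as lower with either hairpin (log2 differences -1.75 and -1.74, adjusted p = 0.0144 and 0.0160, edgeR), though not with the libraries of the shPum2 hairpin alone (0.0549). Tubb3, the neuronal beta-tubulin, was at 556 to 992 CPM in axonal libraries and 3503 to 4194 CPM in somatic ones. Tubb6 had 21.3 and 28.8 CPM, then 70.1 and 45.3 CPM, in axons, with both shPum2 libraries higher. Over the 34 listed genes tested between compartments, 5 were higher and 7 lower in axons with shControl, and 5 and 6 with shPum2, where 27.9% and 24.7% of all genes passed. Their median log2 differences were -0.77 and -0.29, against -0.76 and -0.64 over all genes. As for Ttl, 0 of these calls held when a somatic library of the hairpin compared was left out.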

How the data were processed

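Each of the 8 deposited library files lists estimated counts and TPM for 18321 RefSeq transcripts, with transcript length and effective length in bases, per the file headers. The submitters' processing notes name kallisto, DESeq2 and the build Rnor_6.0, with no tool versions. The authors' 2 deposited comparison tables hold, per the file headers, a signal (mean normalised count), log2 fold changes with SEs, a test score and p-values.

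Transcripts were named through a RefSeq table of assembly GRCr8, which matched 17367 (94.8%). Estimated counts were summed per gene and rounded to whole numbers for the tests. Reads shared by near-identical genes follow kallisto's estimate. Tests used edgeR 4.0.16 in R 4.3.3 (quasi-likelihood, TMM, its expression filter, Benjamini-Hochberg over all genes tested, threshold 0.05), in the 4 libraries of a compartment for the hairpin comparisons and in all 8 for the compartment comparisons. DESeq2 1.42.0 and limma 3.58.1 were alternatives. An edgeR SE is the size of the log2 difference divided by the square root of the quasi-likelihood F statistic. The 95% intervals of log2 differences were built from these SEs. In the axonal hairpin comparison, given without a test, the SEs come from the same statistic. The somatic hairpin fit and the shControl compartment fit were run on simulated counts. These varied less between replicates than the data and had the same profile in every group apart from planted changes. That checks the code and not the fits at the spread of these data, and the axonal hairpin fit was not simulated. Counting intervals and floors cover counting error only.

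The members and lists were chosen with earlier results of these data known. The other genes named were the 3 of each role with the highest somatic TPM, those whose axonal hairpin groups did not overlap, and the 3 nearest profiles per enzyme among genes with a mean of at least 5 CPM. Clip1, Katnbl1, Katna1 and the single mention of Tuba1b and Tuba1c were named after their values were seen. Another gene of the list is counted in its totals and is not reported here.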

Additional observations from a re-analysis of the deposited data

How the results depend on the processing

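In the somatic hairpin comparison 0 of the 4 enzymes passed under all 11 alternatives, among them the replicate block. In the axonal one Agtpbp1 (log2 4.57 to 4.99) and Ttl (4.04 to 4.31) had separate groups under each. With a library left out 3 enzymes had them, but a lone library separates more easily. The replicate block and limma voom leave the scaled values, and so the overlap, unchanged. The list was chosen on this comparison, so nothing is read from these counts. Ttll1 ranged from -0.79 to 0.88 and Atat1 from -0.28 to 0.48. With 1 library left out, somatic log2 differences ranged from -0.178 to 0.0904 for Agtpbp1, from -0.172 to 0.0501 for Ttl from -0.241 to 0.0445 for Ttll1 and from -0.331 to -0.0709 for Atat1, the highest being without replicate 1 of shPum2. Ttll1 was at 0.0034 without replicate 2 of shControl. The somatic call of Pum2 was lost with limma voom (adjusted p = 0.0529) and in a single fit of all 8 libraries.

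Between compartments the number of enzymes called ranged from 0 to 2 with shControl and from 0 to 1 with shPum2 when a library was left out, which assumes that the lone library varies like the other groups. With 2 called, without replicate 1 of axonal shControl, Ttll1 passed as higher (2.18). With shPum2, RLE size factors and limma voom also gave 0 (Ttl: adjusted p = 0.0527 with edgeR and RLE, 0.0532 with limma voom). Direction turned for Atat1 with shControl under RLE (0.0351) and DESeq2 (0.0356), and with shPum2 under total-count scaling (-1.30), and its range with a library left out was -0.0754 to 0.359, with -0.0508 without replicate 1 of somatic shPum2. It turned for Ttll1 under total-count scaling (-0.0682 and -0.16) and for Tuba1a with shControl (-0.31). That scaling moved the log2 values of all genes by a median of -1.57 with shControl and -1.37 with shPum2. The cause of the turns was not tested. In axons total-count scaling moved the log2 values of all genes by a median of 0.17. Of all genes, axonal calls were 0 in edgeR, 6 without the expression filter, and 22 and 31 without replicate 1 of axonal shControl or shPum2, against 159 with DESeq2.

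Same-numbered libraries deviated together in the somatic groups (r = 0.78 across 9517 genes) and weakly in the axonal ones (r = 0.13 across 5386 genes), but the labels give the number no meaning. With the replicate block the members called stayed at 0 in the somatic and 1 in each compartment comparison. The overlap of axonal groups is judged on scaled values that the block does not alter, so it could not change. Axonal shControl values of Agtpbp1 and Ttl rest on 6 to 25 counts, which limits the precision of their folds.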

Other observations

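Severing enzymes, which cut microtubules and in part prefer glutamylated ones, were even in somatic libraries and uneven in axonal ones. Spast, the spastin gene, was at 96.1 to 103 CPM in somatic libraries and had axonal levels of 10.8 and 17.5 CPM under shControl, and of 18.4 and 35.7 CPM under shPum2, which overlapped once TMM-scaled. Katna1, the catalytic subunit of katanin, was at 9.95 to 13.8 CPM in somatic libraries and at 52.5 CPM in replicate 2 of axonal shControl, with at most 1 count in the other 3 axonal libraries. Katnbl1 was at 26.9 CPM in replicate 1 of axonal shPum2 and at 1.45, 0.0739 and 0.0620 CPM in the other 3. Katnal1 was at 19.9 to 24.3 CPM in somatic and at 0.171, 3.03, 0 and 19.7 CPM in axonal libraries. Katna1 did not pass the axonal expression filter, and the TMM-scaled hairpin groups of Katnbl1 and Katnal1 overlapped.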
